A study of Mus musculus with 3 samples.

Results

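The mitochondrial genome of the mouse encodes 13 proteins, all of them subunits of the respiratory chain or of ATP synthase. Their mRNAs were followed here through 10 gene symbols (ND1, ND2, ND3, ND4, ND5, ND6, COX1, COX2, COX3 and CYTB), which were chosen by name. All 10 symbols were found on the mitochondrial sequence in both deposited tables, each in a different row, and for each symbol the row with the highest summed value was kept. These 10 rows were set against 10903 measured loci in the table for density and 11001 in the table for lipopolysaccharide (LPS), a locus being measured at 1 FPKM or more in either library. FPKM stands for fragments per kilobase of transcript, scaled to the fragments of the library, so it is a level relative to the rest of that library. Because the ND4 row also held ND4L and the COX3 row also held ATP6 and ATP8, the 10 rows covered all 13 mRNAs.

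The data came from 3 RNA libraries of RAW264.7, a macrophage line of the mouse that goes back to ascites of a tumour caused by the Abelson leukaemia virus. HD+LPS was the line at high density with LPS, a component of the bacterial outer membrane that macrophages sense, given at 500 ng/ml for 24 h and starting 24 h after seeding. HD was the line at high density without LPS, and LD was the line at low density without LPS. The sources used here give neither the cell numbers seeded nor the harvest time of LD. For HD, too, no time after seeding was listed. All 3 libraries came from the same virus-transformed line, and each group had 1 library. Replicate error is therefore unknown for every difference below, no test was run, and the comparisons are between libraries and not between conditions. In RNA from bulk cultures, fewer cells with a transcript and less of it per cell cannot be told apart.

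The label of the line was checked against marker genes. Of 10 macrophage markers, 7 were measured in the density table and 8 in the LPS table. In each, another 1 was left out because its row was joined with other genes. Lyz2, which encodes lysozyme, was at 1431 FPKM in HD and 1712 FPKM in LD, and at 805 FPKM in HD+LPS and 1311 FPKM in HD. Between HD and LD, the 7 measured macrophage markers had a median log2 ratio of -0.35, HD over LD. At 1.5-fold, 3 of 7 were lower in HD and none higher, beside 6.04% and 11.5% of measured loci. These 3 were Itgam at -0.70, Fcgr1 at -0.68 and Cd14 at -0.61, and only Adgre1 was above 0, at 0.08. The part of these marker differences in the results below was not tested. The macrophage markers did not share a direction between HD+LPS and HD. Adgre1, Itgam and Cd14 were more than 2-fold higher in HD+LPS, with log2 ratios of 1.99, 1.70 and 1.60. Lyz2 and Csf1r were lower, at -0.70 and -0.53, and no marker was 2-fold lower. None of 6 fibroblast, 6 epithelial or 6 lymphocyte markers reached 1 FPKM in either library of either table. Of 6 neutrophil markers, 2 were measured in each table: S100a8 was at 1.38 FPKM in HD and 2.79 FPKM in LD, and at 8.70 FPKM in HD+LPS and 1.26 FPKM in HD, and Elane was at 1.54 FPKM in HD and 0.640 FPKM in LD, and at 0.0954 FPKM in HD+LPS and 1.40 FPKM in HD. Their part in the results below was not tested. The deposited values summed to 766479 FPKM in HD and 665489 FPKM in LD, and in the other table to 713240 FPKM in HD+LPS and 698362 FPKM in HD. HD was scaled separately in each table: the 10 rows read lower in the LPS table by 0.12 on the log2 scale at the median, so ratios were made only within a table. Nuclear ribosomal RNA loci also differed between the libraries. Rn45s, the precursor locus, was at 7947 FPKM in HD and 1937 FPKM in LD, and at 5046 FPKM in HD+LPS and 7005 FPKM in HD; its part in the results below was not tested.

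Mitochondrial DNA is transcribed from both strands into long precursors that run through many genes. In most places tRNAs sit between the coding sequences, and cutting the tRNAs out releases most of the mRNAs. Most of the mRNAs, though not necessarily all, then receive short poly(A) tails, and the mRNAs are translated on mitochondrial ribosomes. ND1 to ND6 and ND4L are membrane subunits of complex I, which passes electrons from NADH to ubiquinone and pumps protons. CYTB is the catalytic core of complex III, COX1, COX2 and COX3 form the core of complex IV, and ATP6 and ATP8 belong to the membrane part of ATP synthase. In macrophages, LPS is known to shift energy metabolism away from respiration and towards glycolysis.

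Where no tRNA lies between neighbours, coding sequences touch or overlap. The genes that share a row in the tables do so, and so do ND5 and ND6, which kept separate rows. These stretches are shown because a read over them cannot be given to 1 gene by its sequence. Sequences were read from the GRCm38 assembly with GENCODE M21 gene ends, 5′ to 3′ on the coding strand, with the bases shared with the neighbouring gene in capitals. The end of ATP8 (chrM:7910-7969, plus strand) shares 43 bases with the start of ATP6, the end of ATP6 (chrM:8578-8607, plus strand) shares 1 base with COX3, and the end of ND4L (chrM:10144-10173, plus strand) shares 7 bases with ND4. The ends of ND5 (chrM:13536-13565, plus strand) and ND6 (chrM:13552-13581, minus strand) run into each other over 14 bases on opposite strands.
ATP8 end: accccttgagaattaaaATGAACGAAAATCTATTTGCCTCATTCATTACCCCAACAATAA
ATP6 end: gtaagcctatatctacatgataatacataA
ND4L end: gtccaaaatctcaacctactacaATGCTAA
ND5 end: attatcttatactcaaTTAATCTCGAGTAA
ND6 end: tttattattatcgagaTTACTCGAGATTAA

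In 3 of the 13 genes the annotated coding sequence ends with a lone T instead of a whole stop codon, and polyadenylation is known to complete the codon to TAA. These are ND4, COX3 and CYTB, and their last 31 bases are printed with that T in capitals, since these mRNAs depend on tail addition for their reading frame to end.
ND4 end: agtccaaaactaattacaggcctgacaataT
COX3 end: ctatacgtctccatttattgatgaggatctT
CYTB end: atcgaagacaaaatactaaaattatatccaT

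The 13 coding sequences were 204 bases (ATP8) to 1824 bases (ND5) long and had a GC content of 31.9% (ATP8) to 41.1% (ND4L). ND6 was the only one on the minus strand, and its mRNA held 28.1% G and 5.97% C, whereas ND1, on the plus strand, held 11.6% G and 26.02% C. The ND6 gene lies at chrM:13552-14070 and ND5 at chrM:11742-13565, and the deposited rows of both carried the same span, chrM:11742-14070. The sources used here do not say whether reads were assigned by strand, so ND6 reads and reads antisense to ND6 cannot be told apart. The nuclear genome of the mouse holds copies of mitochondrial sequence, and how reads that match both were assigned is likewise not stated. The rows of ND3, COX2 and CYTB began and ended exactly where their GENCODE genes do. Those of ND1, ND2 and COX1 ran on over neighbouring tRNA genes.

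The HD library was first set against the LD library. Every one of the 10 rows was lower in HD than in LD, from CYTB at a log2 ratio of -0.98 to COX1 at -0.02. Their median log2 ratio was -0.72, against 0.013 over all measured loci, of which 5302 of 10903 were below 0. All ratios are log2((FPKM + 1)/(FPKM + 1)), HD over LD. The complex I rows and CYTB differed more than COX1 and COX2, so the mix of mitochondrial mRNAs differed as well as their total. Summed, the 10 rows came to 88662 FPKM in HD and 128132 FPKM in LD, a ratio of 0.692.

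No member was 2-fold higher or 2-fold lower in HD, where 3.54% of measured loci were 2-fold higher (386 loci) and 0.899% were 2-fold lower (98 loci). At 1.5-fold, 6 of 10 members were lower (ND1, ND2, ND3, ND4, COX3 and CYTB) and none higher, where 6.04% of loci were lower and 11.5% were higher. The split of all loci depends on the scaling: with both libraries rescaled to the same sum outside the mitochondrial sequence, 210 loci were 2-fold higher and 336 were 2-fold lower, and 5 members were 2-fold lower.

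Among the complex I mRNAs, ND4, which encodes a proton-pumping subunit of the membrane arm, was at 4064 FPKM in HD and 7569 FPKM in LD in its row with ND4L. ND2, another proton-pumping subunit, was at 1790 FPKM in HD and 3262 FPKM in LD. ND1, which sits where the membrane arm meets the ubiquinone site, was at 3579 FPKM in HD and 6474 FPKM in LD. The log2 ratios of these 3 rows lay within 0.05 of each other, at -0.90 for ND4, -0.87 for ND2 and -0.86 for ND1.

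ND3, a small subunit near the ubiquinone site, was close to them, with 2721 FPKM in HD, 4701 FPKM in LD and a log2 ratio of -0.79. ND5, the pump at the far end of the membrane arm, was at 1020 FPKM in HD and 1483 FPKM in LD, with a log2 ratio of -0.54. ND6 was at 1660 FPKM in HD and 2022 FPKM in LD, with a log2 ratio of -0.28. ND6 thus had the smallest difference of the complex I rows. The 6 rows had a median log2 ratio of -0.82 and summed to 14834 FPKM in HD and 25512 FPKM in LD.

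CYTB, whose protein carries both b-type haems of complex III, was at 3088 FPKM in HD and 6096 FPKM in LD, a log2 ratio of -0.98 and the largest difference of the 10. COX1, the complex IV subunit with the oxygen-reducing centre, was at 13608 FPKM in HD and 13800 FPKM in LD, nearly the same level as deposited. With both libraries rescaled to the same sum outside the mitochondrial sequence, the log2 ratio of COX1 was -0.34, with the median of all measured loci at -0.28. COX2, which takes electrons from cytochrome c, was at 15730 FPKM in HD and 17776 FPKM in LD, a log2 ratio of -0.18. The row of ATP6, ATP8 and COX3 was the most abundant of the 10, at 41402 FPKM in HD and 64947 FPKM in LD, with a log2 ratio of -0.65. Its value sums several mRNAs, so it cannot be read as the level of COX3.

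**Figure D1:**
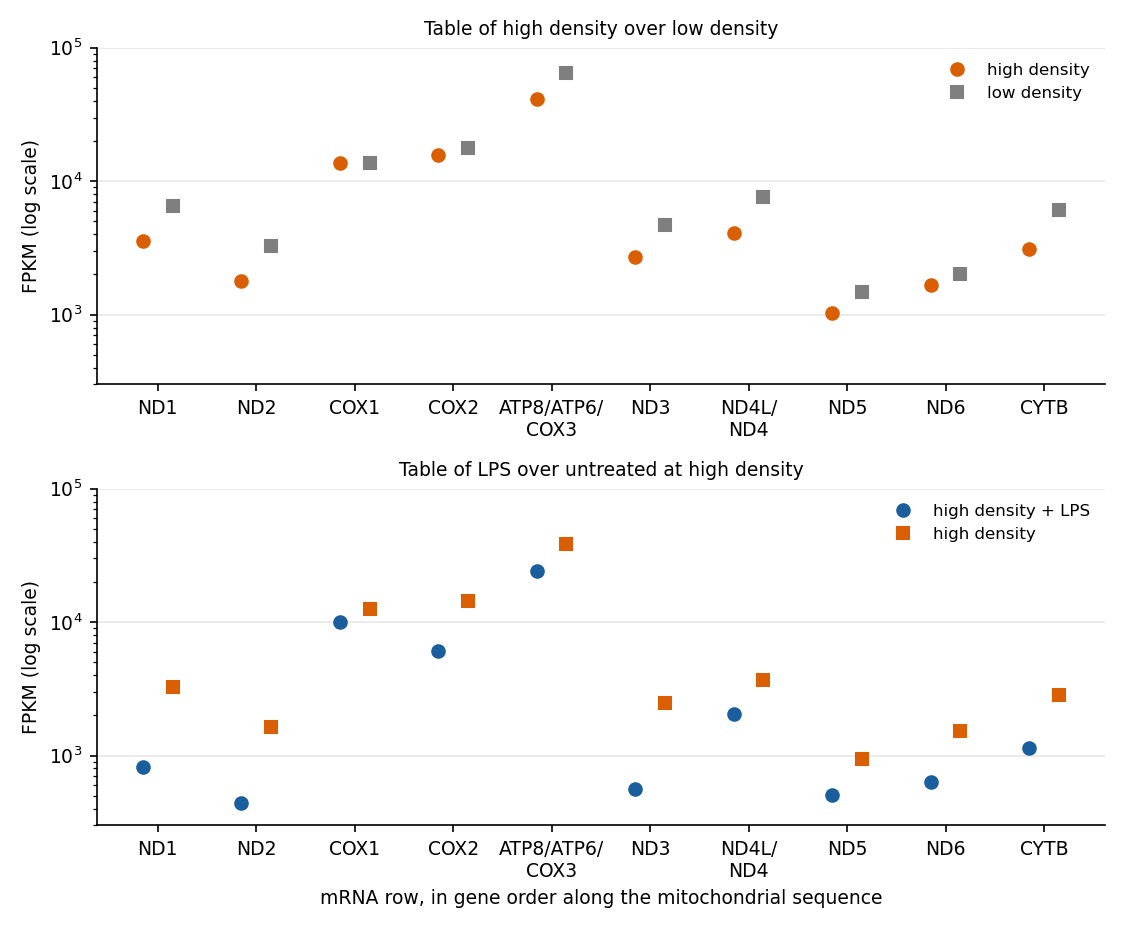
FPKM of each mitochondrial mRNA row on a log axis, with the density table in one panel and the LPS table in the other; each point is 1 library. As deposited, HD lies below LD for all 10 rows, COX1 nearly level, and HD+LPS lies below HD for all 10.

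The HD+LPS library was then set against the HD library. Every one of the 10 rows was again lower, here in HD+LPS than in HD, from ND3 at a log2 ratio of -2.14 to COX1 at -0.30. The median log2 ratio, HD+LPS over HD, was -1.27, against 0.029 over all measured loci, of which 5275 of 11001 were below 0. ND1, ND2 and ND3 differed most, and COX1 differed least. Summed, the 10 rows came to 46552 FPKM in HD+LPS and 81563 FPKM in HD, a ratio of 0.571. Both comparisons share the HD library, so their directions are not independent of each other, and the values are given side by side only.

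At 2-fold, 6 of 10 members were lower in HD+LPS (ND1, ND2, ND3, ND6, COX2 and CYTB) and none higher, where 5.84% of measured loci were lower (642 loci) and 8.6% were higher (946 loci). At 1.5-fold, 9 of 10 were lower, all but COX1, where 16% of loci were lower and 19% were higher.

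ND3 was at 564.0 FPKM in HD+LPS and 2493 FPKM in HD. ND1 was at 818.1 FPKM in HD+LPS and 3275 FPKM in HD, a log2 ratio of -1.9996. ND2 was at 439.8 FPKM in HD+LPS and 1644 FPKM in HD, a log2 ratio of -1.90. These were the 3 lowest ratios of the 10, and ND2 became the least abundant of the 10 rows in HD+LPS, a place held by ND5 in HD.

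ND6, encoded on the opposite strand, was at 630.9 FPKM in HD+LPS and 1531 FPKM in HD, a log2 ratio of -1.28. ND5 was at 503.0 FPKM in HD+LPS and 938.4 FPKM in HD, a log2 ratio of -0.90. The ND4 row was at 2053 FPKM in HD+LPS and 3715 FPKM in HD, a log2 ratio of -0.86. Within complex I, the ratios of ND1, ND2 and ND3 were thus lower than those of ND4 and ND5, with ND6 between them. The 6 rows had a median log2 ratio of -1.59 and summed to 5009 FPKM in HD+LPS and 13596 FPKM in HD.

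CYTB was at 1143 FPKM in HD+LPS and 2831 FPKM in HD, a log2 ratio of -1.31. COX2 was at 6060 FPKM in HD+LPS and 14485 FPKM in HD, a log2 ratio of -1.26. COX1 was at 10100 FPKM in HD+LPS and 12467 FPKM in HD, and the ATP6, ATP8 and COX3 row was at 24241 FPKM in HD+LPS and 38184 FPKM in HD, a log2 ratio of -0.66. COX2 thus stood with CYTB rather than with COX1, its neighbour on the genome.

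**Figure D2:**
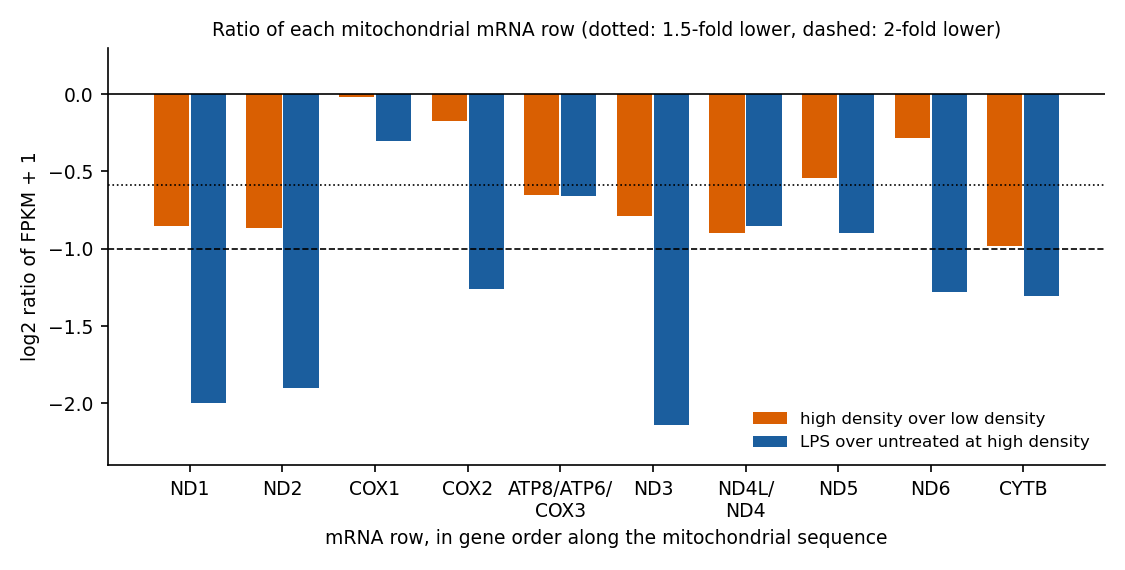
Log2 ratio of FPKM + 1 for each mitochondrial mRNA row, HD+LPS over HD and HD over LD, with a dotted line at 1.5-fold lower and a dashed line at 2-fold lower. No row passes the 2-fold line for density, from CYTB at -0.98 to COX1 at -0.02; 6 of 10 pass it for LPS, with ND3 at -2.14.

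Ratios of members within a library do not depend on how the library was scaled. ND1 to ND2, which are neighbours on the same strand, hardly varied: it was 1.999 in HD and 1.98 in LD, and 1.86 in HD+LPS and 1.99 in HD. ND1 to COX1 was 0.263 in HD and 0.469 in LD, and 0.081 in HD+LPS and 0.263 in HD. CYTB to COX1 was 0.227 in HD and 0.442 in LD, and 0.113 in HD+LPS and 0.227 in HD. Relative to COX1, then, ND1 and CYTB were lower in HD than in LD and lower in HD+LPS than in HD.

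COX2 to COX1 was 1.16 in HD and 1.29 in LD, against 0.600 in HD+LPS and 1.16 in HD, so that COX2 was the more abundant of the pair in LD and HD and COX1 in HD+LPS. ND4 to ND5 was 3.98 in HD and 5.10 in LD, and 4.08 in HD+LPS and 3.96 in HD. ND6 to ND5, whose rows carry the same span, was 1.63 in HD and 1.36 in LD, and 1.25 in HD+LPS and 1.63 in HD. The highest of the 10 rows was 40.6 times the lowest in HD and 43.8 times in LD, and 55.1 times in HD+LPS and 40.7 times in HD. That highest row was the joined row of ATP6, ATP8 and COX3. Among the 8 members in rows of their own, the highest was 15.4 times the lowest in HD and 12.0 times in LD. For LPS it was 23.0 times in HD+LPS and 15.4 times in HD, so the direction for density depended on the joined rows.

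As a share of all FPKM in a library, the 10 rows held 11.6% in HD and 19.3% in LD, and 6.53% in HD+LPS and 11.7% in HD. The complex I rows held 1.94% in HD and 3.83% in LD, and 0.702% in HD+LPS and 1.95% in HD. COX1 and COX2 together held 3.83% in HD and 4.74% in LD, and 2.27% in HD+LPS and 3.86% in HD. The ATP6, ATP8 and COX3 row held 5.40% in HD and 9.76% in LD, and 3.40% in HD+LPS and 5.47% in HD.

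Within the summed FPKM of the 10 rows, complex I rows made up 16.7% in HD and 19.9% in LD, and 10.8% in HD+LPS and 16.7% in HD. The 3 complex IV rows, ATP6 and ATP8 included, made up 79.8% in HD and 75.3% in LD, and 86.8% in HD+LPS and 79.9% in HD. Ranked by level among all rows of the same table, with or without a gene symbol, ND1 was 23rd in HD and 6th in LD, and 127th in HD+LPS and 22nd in HD. COX1 kept its place more nearly, at 4th in HD and 3rd in LD, and 4th in both HD+LPS and HD.

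**Figure D3:**
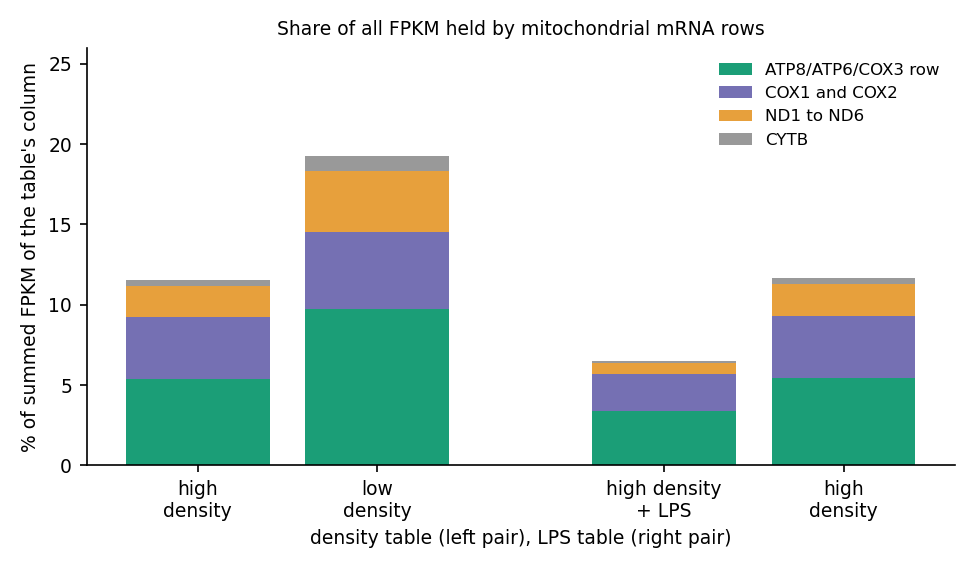
Percent of all FPKM of a library held by the mitochondrial mRNA rows, stacked by part (complex I rows, CYTB, COX1 with COX2, and the ATP6, ATP8 and COX3 row), with bars starting at 0. The bars reach 11.6% in HD and 19.3% in LD, and 6.53% in HD+LPS and 11.7% in HD.

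The ribosomal RNAs of the mitochondrion, which come from the same strand as most of the mRNAs, did not show the same ratios. The row of mt-Rnr1, the small-subunit rRNA, was at 967.9 FPKM in HD and 850.5 FPKM in LD (log2 ratio 0.19), and at 1179 FPKM in HD+LPS and 892.5 FPKM in HD (0.40). The row of mt-Rnr2, the large-subunit rRNA, was at 792.2 FPKM in HD and 966.9 FPKM in LD (-0.29), and at 423.3 FPKM in HD+LPS and 733.4 FPKM in HD (-0.79). As deposited, the small-subunit rRNA was thus higher where all 10 mRNA rows were lower, but for density its log2 ratio turned to -0.13 with rescaling outside the mitochondrial sequence; the large-subunit rRNA was lower. Both rRNAs were far below COX1 in every library, and the sources used here do not say whether rRNA was depleted or poly(A) RNA selected.

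Of 31 rows on the mitochondrial sequence, 19 were tRNA rows, and nearly all were listed at 0. TrnN was listed at 3967 FPKM in HD and 0 in LD, and at 0 in HD+LPS and 3751 FPKM in HD. TrnT was listed at 2914 FPKM in HD and 0 in LD, and at 0 in HD+LPS and 2769 FPKM in HD, and TrnP was listed at 4644 FPKM in HD+LPS and 0 in HD. TrnN is 71 bases long and TrnT and TrnP are 67 bases long, so a few fragments give a large FPKM and a 0 can be a failed estimate; no ratio is given.

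The authors' deposited table for density marked no member as significant, among 33 significant rows in all, with p-values of 0.0768 (ND3) to 0.871 (ND6) and a q-value of 0.999 for every member. The authors' deposited table for LPS also marked none, among 45 significant rows. In that deposited table of the authors, ND3 had p = 0.0032 (q = 0.244), ND2 had p = 0.0091 (q = 0.352) and ND1 had p = 0.0093 (q = 0.357), and the other 7 members had p-values of 0.1025 or more and a q-value of 0.999. That test was made without replicates, so its p-values do not rest on a measured spread between cultures. The significant rows were few among the 49850 rows for density and the 49971 rows for LPS. That no member was marked therefore says little about the members.

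The complexes of the respiratory chain are built from mitochondrial and nuclear products together, complex II from nuclear products alone. Of 75 nuclear subunits listed, 67 were measured in each table in rows of their own. In HD against LD their median log2 ratio was 0.15, and 14 of 67 were below 0, beside 5302 of 10903 measured loci. In HD+LPS against HD it was -0.36, and 60 of 67 were below 0, beside 5275 of 11001 measured loci. In both comparisons the median of the mitochondrial mRNAs lay below that of the nuclear subunits: the member median minus the nuclear median was -0.87 for density and -0.91 for LPS on the log2 scale. For density 7 of 10 members lay below the lowest nuclear subunit, and for LPS 6 of 10 did; the others lay within the nuclear range, and COX1 for LPS, at -0.30, lay above the nuclear median.

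The summed FPKM of the 10 mitochondrial rows was 4.11 times that of the nuclear subunits measured for density in HD and 6.81 times in LD, and 3.23 times that of those measured for LPS in HD+LPS and 4.24 times in HD; the measured subunits were not all the same in the 2 tables. For density, 1 of 67 nuclear subunits was 2-fold higher, against 3.54% of all measured loci, and none was 2-fold lower: Ndufv3, of the NADH-oxidising end of complex I, was at 272 FPKM in HD and 130 FPKM in LD (log2 ratio 1.06). For LPS, 4 of 67 were 2-fold lower, a share near the 5.84% of all measured loci, and none was 2-fold higher. The 4 were Uqcr11 of complex III (150.02 FPKM in HD+LPS, 335 FPKM in HD, log2 ratio -1.15) and the ATP synthase subunits Atp5j2, Atp5g3 and Atp5k. These ATP synthase genes had log2 ratios of -1.16 for Atp5j2, -1.08 for Atp5g3 and -1.04 for Atp5k. Atp5g3 is only 1 of the genes that encode the proton-carrying c subunit, so its value is not that of all c subunit mRNA.

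By complex, the nuclear medians for density were 0.17 in complex I, 0.11 in complex II, 0.18 in complex III, 0.17 in complex IV and 0.059 in ATP synthase. For LPS they were -0.36 in complex I, -0.34 in complex II, -0.24 in complex III, -0.43 in complex IV and -0.33 in ATP synthase. Mitochondrial and nuclear subunits of complex I therefore differed in sign for density, at -0.82 and 0.17, and for LPS they shared a sign but not a size, at -1.59 and -0.36. The sign of the nuclear medians for density depends on the scaling: with both libraries rescaled outside the mitochondrial sequence, the complex I median was -0.15.

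**Figure D4:**
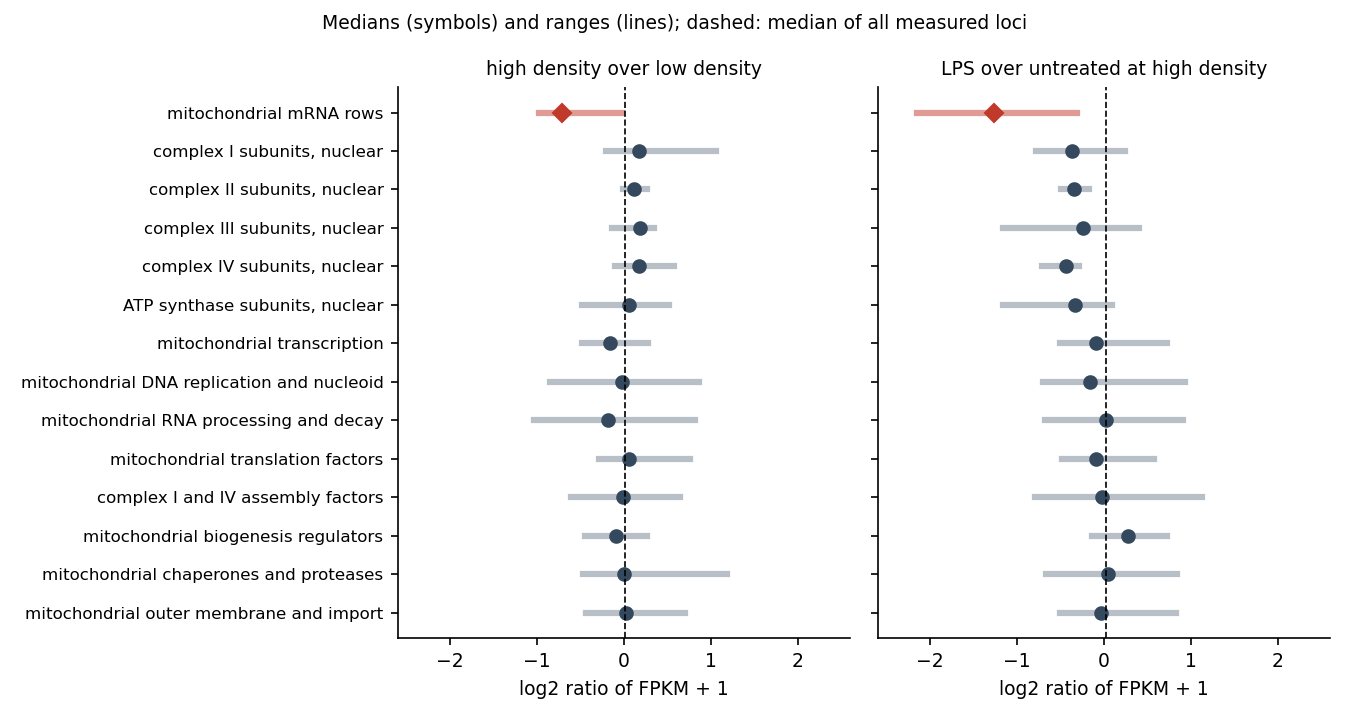
Median log2 ratio (symbols) and range (lines) of the mitochondrial mRNA rows and of lists of nuclear genes, with a dashed line at the median of all measured loci, 1 panel per comparison. The medians of the mitochondrial rows, -0.72 for density and -1.27 for LPS, lie to the left of all 13 nuclear list medians, while the COX1 value, -0.02 for density and -0.30 for LPS, lies to the right of several of them.

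Genes that make and mature mitochondrial RNA are nuclear, and their products are imported. Counts past 2-fold in this and the following lists stand beside the shares of all measured loci. Those were 3.54% higher and 0.899% lower for density, and 8.6% higher and 5.84% lower for LPS. The lists are short, so a count of 0 or 1 is not read as a trait of a list. The signs of the list medians depend on the scaling: of 13 nuclear lists, the 8 with a median above 0 for density, and for LPS the 2 lists of RNA processing and of chaperones and proteases, had a median below 0 when rescaled outside the mitochondrial sequence. Of 9 genes of mitochondrial transcription, 8 were measured for density (median log2 ratio -0.16) and 9 for LPS (-0.089), and none was past 2-fold. Tfam, the packaging and initiation factor of mitochondrial DNA, was at 13.0 FPKM in HD and 18.2 FPKM in LD (-0.45), and at 9.46 FPKM in HD+LPS and 12.0 FPKM in HD (-0.31). Polrmt, the mitochondrial RNA polymerase, was the lowest of the list for LPS, at 6.62 FPKM in HD+LPS and 9.83 FPKM in HD (-0.51). Tefm, the elongation factor, was the lowest for density, at 7.88 FPKM in HD and 11.4 FPKM in LD (-0.49). The other extremes lay above these: Mterf3, a repressor of mitochondrial transcription, was at 22.2 FPKM in HD+LPS and 13.0 FPKM in HD (0.72). Mterf2 had a log2 ratio of 0.44 for LPS, but at levels near the minimum of 1 FPKM, 1.39 FPKM in HD+LPS and 0.758 FPKM in HD. For density Mterf4 was at 0.28 and Mterf3 at -0.08.

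Of 24 genes of mitochondrial RNA processing and decay, 22 were measured in each table, with medians of -0.18 for density and 0.024 for LPS. For density 1 of 22 was 2-fold lower, beside 0.899% of all measured loci, and none was 2-fold higher. That gene was Trub2, a pseudouridine synthase, at 6.70 FPKM in HD and 14.9 FPKM in LD (-1.04). Fastkd3, of a family that binds mitochondrial RNA, followed at 5.82 FPKM in HD and 12.3 FPKM in LD (-0.96). At the other end Hsd17b10, a subunit of mitochondrial RNase P, was at 88.0 FPKM in HD and 49.4 FPKM in LD (0.82), and Grsf1, of the RNA granules, had a log2 ratio of 0.40.

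For LPS no gene of that list was past 2-fold. Lrpprc, which stabilises mitochondrial mRNAs, was the lowest, at 24.6 FPKM in HD+LPS and 39.9 FPKM in HD (-0.68), and Fastkd2 was at -0.41. Pnpt1, the mitochondrial polynucleotide phosphorylase that degrades RNA, was the highest, at 35.4 FPKM in HD+LPS and 18.4 FPKM in HD (0.91). Trmt10c, another subunit of RNase P, was at 30.03 FPKM in HD+LPS and 16.2 FPKM in HD (0.85).

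The 15 genes of mitochondrial DNA replication and nucleoids were all measured, with medians of -0.029 for density and -0.16 for LPS, and none was past 2-fold. Their extremes for density were Dna2, a nuclease and helicase (-0.86), Lig3, the DNA ligase (-0.46), Primpol, a primase (0.41), and Dguok, a deoxynucleoside kinase (0.87). Their extremes for LPS were Polg, the catalytic subunit of the mitochondrial DNA polymerase (6.32 FPKM in HD+LPS, 10.8 FPKM in HD, -0.69), Twnk, the helicase (-0.57), Primpol (0.32) and Rrm2b, a ribonucleotide reductase subunit (0.94). DNA copy number was not measured.

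Of 14 translation factors, 12 were measured, with medians of 0.059 for density and -0.094 for LPS, and none was past 2-fold. Oxa1l, the insertase for mitochondrial translation products, was the highest for density (54.6 FPKM in HD, 31.9 FPKM in LD, 0.76) and the lowest for LPS (35.1 FPKM in HD+LPS, 49.6 FPKM in HD, -0.49). The others at the ends were Gfm1 (-0.29), Guf1 (-0.15) and Mtrf1 (0.43) for density, and Mtif2 (-0.37), Mrrf (0.31) and Gfm2 (0.58) for LPS.

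Of 9 regulators of mitochondrial biogenesis, 8 were measured, with medians of -0.089 for density, which turned to 0.020 with a minimum of 5 FPKM, and 0.28 for LPS, and none was past 2-fold. For density Pprc1, a coactivator, was at -0.45 and Gabpb1, a subunit of a factor that drives nuclear respiratory genes, at -0.36, with Esrra at 0.15 and Nrf1 at 0.27 on the other side. For LPS Gabpb1 was at 15.8 FPKM in HD+LPS and 9.15 FPKM in HD (0.72) and Sp1 at 25.6 FPKM in HD+LPS and 15.2 FPKM in HD (0.72), with Nrf1 at -0.14 and Pprc1 at -0.10.

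The remaining lists lay near 0. Assembly factors of complexes I and IV had medians of -0.012 for density and -0.015 for LPS, with Cox17, the copper chaperone of complex IV, past 2-fold for LPS at 413 FPKM in HD+LPS and 187 FPKM in HD (1.14). Chaperones and proteases had medians of 0.0046 for density and 0.049 for LPS, with Lonp1, the matrix protease, past 2-fold for density at 166 FPKM in HD and 72.4 FPKM in LD (1.18). Outer membrane and import genes had medians of 0.023 for density and -0.036 for LPS.

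Among 749 nuclear protein-coding genes at 100 FPKM or more in either library of both tables, 5 were nearest to the median pair of the members (-0.72 for density, -1.27 for LPS), by Euclidean distance over these 2 log2 ratios. Lpl, lipoprotein lipase, was nearest, at a distance of 0.38, with 110 FPKM in HD and 139 FPKM in LD (-0.34) and 39.4 FPKM in HD+LPS and 101 FPKM in HD (-1.33). Srsf2 and Srsf5, splicing factors, followed at distances of 0.44 and 0.49, then Gpx1, glutathione peroxidase, at 0.53, and Kpna2, a nuclear import receptor, at 0.57. Srsf2 had the more even pair, -0.86 for density and -0.85 for LPS. Likeness over so few libraries is a description only.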

How the data were processed

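RNA was measured in 3 RAW264.7 libraries (LD, HD and HD+LPS), 1 per group. Per the submitters' processing notes, FastQC, fastp, TopHat2 and Cuffdiff were used, with the builds GRCm38 and mm10 and no versions; for the annotation, strand setting and scaling, the sources used here give nothing. The authors deposited 2 Cuffdiff gene tables, for HD with LD and for HD+LPS with HD, holding FPKM of both libraries and a p-value and q-value per locus, per the file headers. Locus starts were raised by 1 to be 1-based.

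Here, FPKM values were turned into log2((FPKM + 1)/(FPKM + 1)) within a table, with pandas 2.3.3 and numpy 2.4.6 in Python 3.11.15. A locus counted as measured, once, if 1 library or both reached 1 FPKM and its status was not a failure. Genes in joined rows were left out of the nuclear lists. Depth is not given: from the step between low values, the members in rows of their own had about 2900 to 348200 fragments. At the lowest count the counting error was about 1.85%. Full gene lengths were used, so the counts of short mRNAs such as ND3 may be too high and their error too low. These values cover counting error only.

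The members, lists and alternatives were chosen with earlier results of these data known. By the rule for named genes, all members, the mitochondrial rRNAs, the 2 highest and 2 lowest of each nuclear list, every listed gene past 2-fold and the 5 nearest genes could be named; extremes of subunit, assembly, chaperone and import lists are given by medians and counts instead. The code was tested on simulated data. Gene ends and sequences came from GENCODE M21. Alternatives were other pseudocounts, minimums, row sums and scalings, and leaving out ND6 or the joined rows.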

Additional observations from a re-analysis of the deposited data

How the results depend on the processing

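The member median kept its sign under all 9 alternatives in both comparisons (-1.04 to -0.66 for density, -1.38 to -1.26 for LPS), and all 70 single-member values in each stayed below 0. Scaling moved it: for density it was -1.04 when rescaled to the same sum outside the mitochondrial sequence, -1.01 without the 20 highest genes, and -0.88 over rows with a gene symbol (chosen after seeing the data), with 5, 5 and 4 members 2-fold lower in place of 0. All loci shifted too, their median moving to -0.28, -0.25 and -0.13, so relative to them the members stayed close to the reported difference. For LPS, rescaling outside the mitochondrial sequence gave -1.38, with all loci at -0.079. The constant sign of the single members is not a strong check. Each member had 1 row, the pseudocounts were small beside its level, and every scaling tried moved all members lower together. Medians of 8 of 13 nuclear lists for density and 2 of 13 for LPS changed sign with the scaling. Counts of all loci also moved with the pseudocount: with 0 or 5 FPKM, 641 or 167 loci were 2-fold higher for density and 218 or 36 lower; for LPS, 475 were higher with 5 FPKM and 1034 or 241 lower. At 1.5-fold, 5 FPKM left 666 higher and 244 lower for density, and 1292 higher and 889 lower for LPS. For density, the scalings gave 210, 223 and 284 loci 2-fold higher and 336, 285 and 176 lower, and at 1.5-fold 573, 610 and 831 higher and 2245, 2010 and 1308 lower, in the order above. No paired analysis was possible because each group had 1 library, and for the same reason no replicate could be left out.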
